A study of Mus musculus with 4 samples.

Results

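Striatal projection neuron markers are 7 genes whose products carry dopamine and cyclic AMP signals in the principal neurons of the striatum, a forebrain region near the hypothalamus. They are Ppp1r1b, Pde10a, Adora2a, Rgs9, Rasd2, Gpr6 and Adcy5, taken from the 19938 genes that the array names by a probe set with exactly 1 gene symbol. The genes were chosen by name with their log2 values on these same 4 arrays already known, so their values are a description and no test is given for them. The annotation used here named a probe set for 6 of the 7, and Adora2a is not analysed here. All 6 had 1 probe set each, and all 6 were among the 11963 genes whose mean level reached the filter of 6.59 log2, the 40th percentile of gene means. Each of them also stood above 6.59 log2 in the control array.

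The pilot study profiled total RNA of the hypothalamus of male CDF1 mice, a cross of BALB/c and DBA/2, aged 10 to 11 weeks and killed 20 days after the injection. Controls received a sham injection of 0.2 ml of Hanks' balanced salt solution, and their array held equal amounts of RNA pooled from 4 animals. The other arrays held RNA of mice inoculated under the skin of the flank with cells of the mouse colon adenocarcinoma line C26. They were given 500000 cells (0.5M, 4 animals pooled), 1000000 cells (1M, 3 animals pooled) or 2000000 cells (2M, 1 animal, although the sample's title calls it pooled). Each group was 1 array with no replicate, so no difference between 2 arrays has an error of its own, and an SD below is the spread over the 3 tumour-bearing arrays, which holds no uncertainty of the control. The labels do not say where the dissection was bounded.

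Striatal projection neurons, also called medium spiny neurons, are GABA neurons that receive cortical and dopamine input. Those of the direct pathway carry the dopamine receptor Drd1 and the peptides of Tac1 and Pdyn, and those of the indirect pathway carry Drd2, Adora2a, Gpr6 and the peptide precursor Penk. In both, the G protein subunit encoded by Gnal stimulates adenylyl cyclase 5 (Adcy5), the cyclic AMP formed activates protein kinase A, and the kinase phosphorylates the Ppp1r1b product, which then inhibits protein phosphatase 1. Pde10a breaks the cyclic nucleotides down again.

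The 0.5M array stood apart from the others in the pituitary transcripts Gh and Prl, from a list added after the values were seen. Gh, the growth hormone gene, had levels of 6.13 log2 in the control, 10.80 at 0.5M, 6.91 at 1M and 6.85 at 2M. Prl, the prolactin gene, had 3.95, 7.80, 4.50 and 4.51 log2 in the same order, below the filter on average. The other pituitary hormone genes did not stand apart there: Cga, Lhb and Tshb lay at 8.56, 7.42 and 4.92 log2 at 0.5M and at 8.59, 7.46 and 4.91 log2 at 1M. Of 12 pituitary genes listed 9 were measured and 4 passed the filter, namely Gh, Cga, Lhb and Ghrhr. Gh and Ghrhr, at 6.13 and 6.52 log2 in the control, were under the filter there and passed only through the tumour-bearing arrays. The mean level of those 4 was 7.08 log2 in the control, 8.43 at 0.5M, 7.47 at 1M and 7.29 at 2M. Its height at 0.5M is that of Gh, since Ghrhr too was alike at 0.5M and 1M, at 6.92 and 6.91 log2. What part these transcripts or their source have in the values of the striatal markers was not tested, and every result at 0.5M below rests on this array.

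Of the 6 measured markers, 5 had their highest value of the 4 arrays at 0.5M, and Gpr6 had its highest at 2M. Over all genes past the filter, 17.9% had their highest value in the 0.5M array. The lowest of the 4 values was that of the control for 5 of the 6, and that of 2M for Adcy5. Against control the 6 markers differed at 0.5M by 0.17 to 0.87 log2, with a median of 0.38 log2. At 1M the differences were 0.04 to 0.26 log2 with a median of 0.17, and at 2M they were -0.01 to 0.51 log2 with a median of 0.19. The same medians over all genes past the filter were 0.01, 0.04 and 0.01 log2. All 3 differences share the single control array, so they are not independent of each other. In bulk RNA such as this, a larger share of cells of a type and more RNA per cell cannot be told apart.

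**Figure D1:**
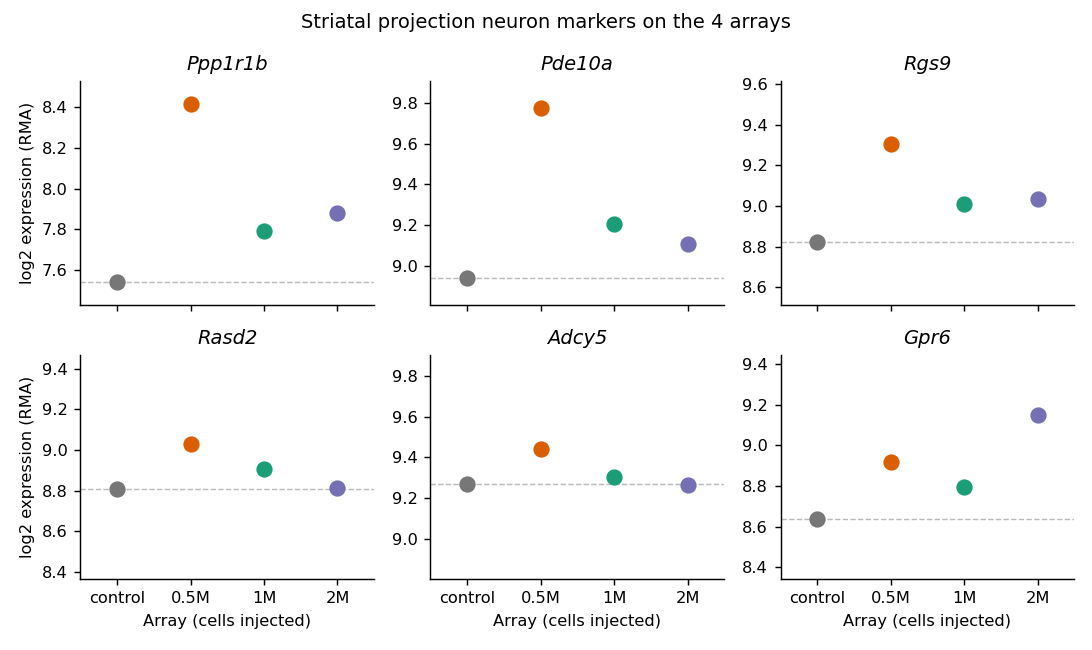
Log2 expression (RMA, vertical axis, spanning 1.1 log2 in every panel) of the 6 measured markers on the 4 arrays (horizontal axis), 1 point per array and no replicates. The dashed line is the control value. Ppp1r1b, Pde10a, Rgs9, Rasd2 and Adcy5 are highest at 0.5M and Gpr6 at 2M.

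Ppp1r1b encodes the protein phosphatase 1 inhibitor that integrates dopamine and glutamate signals in these neurons. Its level was 7.54 log2 in the control, 8.42 at 0.5M, 7.79 at 1M and 7.88 at 2M. The 0.5M array stood apart from the others, by 0.53 log2 from the next highest, while 1M and 2M lay within 0.09 log2 of each other. The difference from control was 0.87 log2 at 0.5M, a 1.83-fold difference that 0.109% of all genes reached, and 0.25 and 0.34 log2 at 1M and 2M. Over the 3 tumour-bearing arrays it averaged 0.49 ± 0.34 log2 (SD).

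Pde10a, the dual cyclic nucleotide phosphodiesterase of the striatum, had levels of 8.94 log2 in the control, 9.78 at 0.5M, 9.20 at 1M and 9.10 at 2M. Again 0.5M was the array that stood apart, 0.57 log2 above the next highest. The difference from control was 0.84 log2 at 0.5M (1.79-fold, reached by 0.142% of all genes), 0.26 at 1M and 0.17 at 2M, with a mean of 0.42 ± 0.36 log2 (SD over the tumour-bearing arrays).

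Rgs9 encodes a regulator of G protein signalling that speeds the shut-off of inhibitory G proteins, with a long striatal splice form that acts downstream of dopamine and opioid receptors. It stood at 8.82 log2 in the control, 9.30 at 0.5M, 9.01 at 1M and 9.03 at 2M. The order of arrays was that of Ppp1r1b with smaller gaps: 0.48 log2 between 0.5M and control, and 0.02 log2 between 2M and 1M. At 0.5M 0.644% of all genes were at least as far above control.

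Rasd2, which encodes the striatal small GTPase Rhes, was measured at 8.81 log2 in the control, 9.03 at 0.5M, 8.91 at 1M and 8.82 at 2M. Adcy5, the main adenylyl cyclase of the striatum, was measured at 9.27 log2 in the control, 9.44 at 0.5M, 9.31 at 1M and 9.26 at 2M. Both were highest at 0.5M by small margins, 0.12 and 0.14 log2 above the next array, and both were within 0.01 log2 of control at 2M. Differences of that size were common: 7.82% of all genes were as far above control at 0.5M as Rasd2, and 12.3% as far as Adcy5.

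Gpr6 encodes an orphan receptor that raises cyclic AMP by constitutive activity and marks neurons of the indirect pathway. Its levels were 8.64 log2 in the control, 8.92 at 0.5M, 8.80 at 1M and 9.15 at 2M. The order therefore differed from the other 5 markers, with the single animal of 2M at the top, 0.51 log2 above control (1.43-fold, reached by 1.16% of all genes) and 0.23 log2 above 0.5M. The differences at 0.5M and 1M were 0.28 and 0.16 log2.

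Counted by a fixed size of 0.5 log2, a 1.41-fold difference, 2 of the 6 markers (Ppp1r1b and Pde10a) were above control at 0.5M, 0 at 1M and 1 (Gpr6) at 2M. The shares of all genes past that size upward were 0.56%, 1.63% and 1.24%. Rgs9, at 0.48 log2, lay just under it at 0.5M. With 0.3 log2, a 1.23-fold difference, the counts were 3, 0 and 2, beside 3.38%, 10.3% and 6.06% of all genes. The marker count at 2M is Gpr6 and Ppp1r1b. No marker was 0.3 log2 or more below control in any array, beside 3.02%, 7.82% and 5.98% of all genes. A value above control in all 3 tumour-bearing arrays was found for 5 of 6, Adcy5 being the other, and for 33.4% of all genes. Since the genes were chosen with these values known, nothing is read from the counts.

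The 0.5M array was also set against the other tumour-bearing arrays, a contrast in which the control has no part. Against 1M, Ppp1r1b and Pde10a were at least 0.5 log2 higher at 0.5M, by 0.62 and 0.57 log2, and 0.869% of all genes were. Against 2M the same 2 markers were, by 0.53 and 0.67 log2, and 0.259% of all genes were. The other differences between 0.5M and 1M were 0.12 to 0.29 log2, and those between 0.5M and 2M were 0.18 to 0.27 log2 for Rgs9, Rasd2 and Adcy5 and -0.23 log2 for Gpr6. Ppp1r1b, Pde10a and Rgs9 exceeded every other array by at least 0.2 log2 at 0.5M, a margin reached by 0.56% of all genes past the filter. These contrasts share the 0.5M array and are again 1 array against 1.

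**Figure D2:**
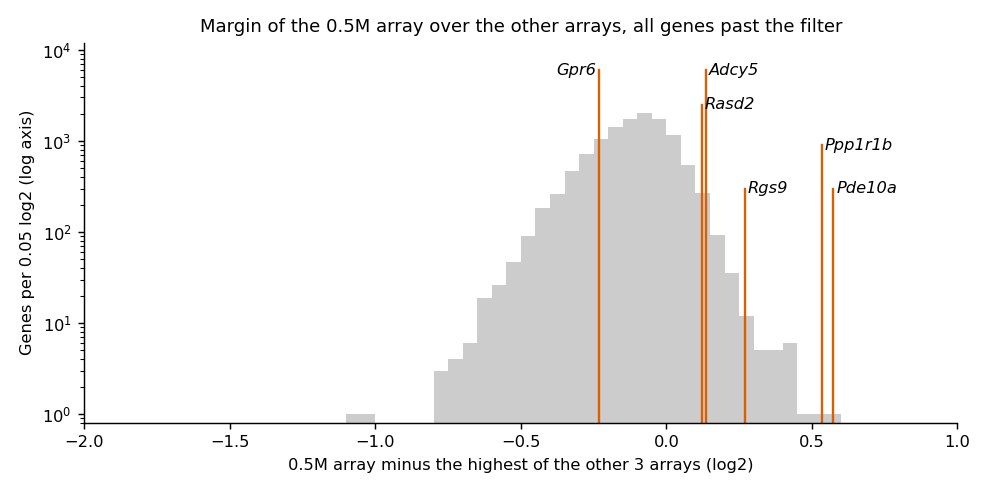
Number of genes past the filter (vertical axis, log scale, bins of 0.05 log2) by the level in the 0.5M array minus the highest level in the other 3 arrays (horizontal axis, log2). Orange lines mark the 6 measured markers, from Gpr6 at -0.23 to Pde10a at 0.57 log2; line height has no meaning, and Gh, at 3.89 log2, lies beyond the axis.

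No measured marker ran upward through 0.5M, 1M and 2M with the number of injected cells. For Pde10a, Rasd2 and Adcy5 the tumour-bearing arrays ran downward from 0.5M to 2M. In Ppp1r1b, Rgs9 and Gpr6, 1M was the lowest tumour-bearing array, by 0.09, 0.02 and 0.12 log2 from its nearest neighbour. For scale, the SD across the 3 tumour-bearing arrays had a median of 0.0853 log2 over all genes past the filter. The gap between 1M and 2M was below that for Rgs9 and Adcy5 and only slightly above it for Ppp1r1b, Pde10a and Rasd2, so without replicates the order of those arrays is not resolved for these 5 genes.

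The mean profile of the 6 markers, each centred on its own mean over the 4 arrays, was -0.21 log2 in the control, 0.27 at 0.5M, -0.05 at 1M and -0.01 at 2M. Rgs9 lay nearest to it, at a Euclidean distance of 0.02 log2 over the 4 arrays. Rasd2 and Adcy5 lay at 0.20 and 0.22, Ppp1r1b and Pde10a at 0.30 and 0.31, and Gpr6 farthest at 0.36. Of 11957 genes that are no marker, the 10 nearest to this profile were Tomm20, Mrpl18, Il1rapl1, Fbxl16, 1110059E24Rik, Baiap2, Drd1, Trank1, Arg2 and Gm10033, at 0.06 to 0.11 log2. One of them, Drd1, the dopamine receptor of the direct pathway, is in the lists of striatal genes. Tomm20, an import receptor of mitochondria, was nearest, with differences from control of 0.50, 0.21 and 0.28 log2, and Mrpl18, a mitochondrial ribosomal protein gene, was next with 0.47, 0.19 and 0.28 log2. After Drd1, the striatal genes nearest to the profile were Strip2, Isl1, Pde2a and Meis2, at ranks 30, 75, 80 and 103 of the 11957 genes. This distance counts the size of the differences as well as the order of the arrays. Ppp1r1b had the array order of the mean profile with wider gaps, and 1887 other genes lay nearer to the mean than it did. For Gpr6 4823 other genes lay nearer. The counts therefore do not show how many genes share the shape of the profile.

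Promoter sequences are shown for Rgs9, the marker nearest to the mean profile, for Pde10a, which had the widest margin at 0.5M, and for Gpr6, whose order of arrays differed. Each is the 250 bases before the transcription start, from RefSeq's promoter windows on GRCm38.p6, and the table used here holds windows of 5 of the 7 markers. The deposited values name no build. Capitals mark matches, on either strand, to 6 motifs searched: the cyclic AMP response element TGACGTCA, its half-site TGACG, the GC box GGGCGG, the E-box CAGCTG, the nuclear receptor half-site AGGTCA and the TATA box TATAAA. The half-site lies inside the full element, so 1 full element also gives a half-site on each strand.
Rgs9, chr11:109298182-109298431, minus strand: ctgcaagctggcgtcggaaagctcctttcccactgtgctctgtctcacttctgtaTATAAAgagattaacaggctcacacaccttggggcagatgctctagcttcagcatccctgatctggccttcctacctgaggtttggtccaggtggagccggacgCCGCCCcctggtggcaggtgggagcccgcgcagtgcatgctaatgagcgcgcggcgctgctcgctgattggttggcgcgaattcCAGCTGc
Pde10a, chr17:8801495-8801744, plus strand: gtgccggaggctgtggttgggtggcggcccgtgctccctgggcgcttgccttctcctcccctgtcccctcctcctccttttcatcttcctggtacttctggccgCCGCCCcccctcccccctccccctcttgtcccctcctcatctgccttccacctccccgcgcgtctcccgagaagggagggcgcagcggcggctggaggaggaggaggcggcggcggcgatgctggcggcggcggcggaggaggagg
Gpr6, chr10:41072291-41072540, minus strand: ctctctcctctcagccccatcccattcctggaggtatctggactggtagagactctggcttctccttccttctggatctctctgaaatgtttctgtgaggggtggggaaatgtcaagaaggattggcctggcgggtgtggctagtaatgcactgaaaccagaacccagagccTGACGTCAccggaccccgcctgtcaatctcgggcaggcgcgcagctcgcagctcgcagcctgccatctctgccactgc

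Gpr6 was the 1 marker whose window held the full cyclic AMP response element, 78 bases before the start, and 1.55% of all 32851 windows hold one. Rgs9 held a TATA box match 195 bases before the start (12.4% of windows), an inverted GC box at 91 (32.7%) and an E-box at 7 (13.0%). Pde10a held an inverted GC box at 146 in the window shown, and its other window, from chr17:8849735-8849984, held an E-box at 59 and no GC box. The window of Adcy5 held 4 GC boxes. In Rasd2 none of the 6 motifs was found. The half-site AGGTCA, found in 14.0% of windows, was in none of the marker windows, and the half-site TGACG, found in 17.8%, was in that of Gpr6 alone. A match is a run of letters in this window, and no match says nothing about a factor.

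Another 52 genes of striatal projection neurons were listed by textbook expression, 49 were measured and 47 passed the filter. Their median difference from control was 0.18 log2 at 0.5M, 0.04 at 1M and 0.04 at 2M, less than that of the markers in each array. At 0.5M, 41 of the 47 stood above control (87.2%, all genes 51.5%). At 1M 27 did (57.4%, all genes 56.9%) and at 2M 28 did (59.6%, all genes 51.8%), shares near those of all genes at 1M and somewhat above them at 2M. Above control at 0.5M were also 3 of 4 septum and pallidum genes (75%), 11 of 15 hypothalamus (73.3%) and 5 of 7 thalamus genes (71.4%). For cortex and hippocampus genes the count was 5 of 10 (50%), and for striatal interneuron and basal forebrain cholinergic genes 0 of 5. In 24 of the 47 the 0.5M array was the highest of the 4, a share of 51.1%, beside 17.9% over all genes. By size, 4 were at least 0.5 log2 above control at 0.5M, namely Chrm4, Gng7, Lrrc10b and Meis2, and 0 were at 1M or 2M, beside 0.56%, 1.63% and 1.24% of all genes. At the shares of 1M and 2M less than 1 gene of 47 would be counted, so the absence of calls there does not set the list apart. None was 0.5 log2 below control in any array, beside 0.293%, 2.14% and 1.25% of all genes at 0.5M, 1M and 2M. The list was drawn up with earlier results of these arrays known.

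**Figure D3:**
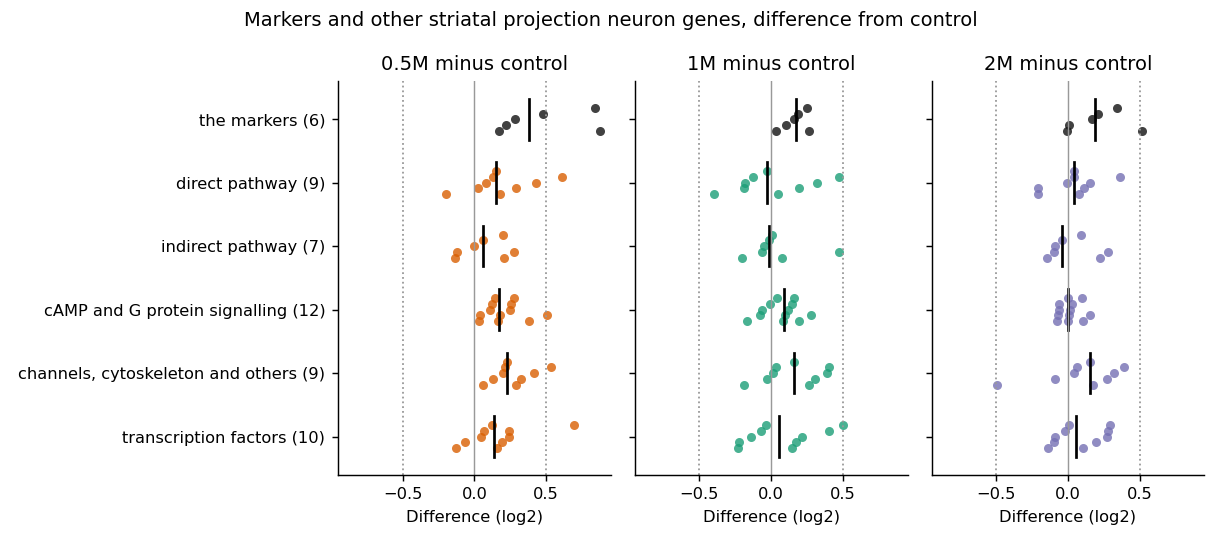
Difference from the control array (horizontal axis, log2) of the 6 measured markers (black) and the 47 other striatal projection neuron genes past the filter (coloured), by list, in the 0.5M, 1M and 2M arrays; each point is 1 gene, black bars are list medians and dotted lines mark 0.5 log2. The other striatal genes have a median of 0.18 log2 at 0.5M and of 0.04 log2 at 1M and at 2M.

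Among the 9 genes of the direct pathway, the median difference from control was 0.15 log2 at 0.5M, -0.03 at 1M and 0.04 at 2M. Drd1 stood at 7.45 log2 in the control, 7.88 at 0.5M, 7.49 at 1M and 7.52 at 2M, so that 0.5M alone stood apart, 0.43 log2 above control. Chrm4, the muscarinic receptor of these neurons, was 0.61, 0.47 and 0.36 log2 above control. The peptide genes did otherwise: Tac1, the substance P precursor, differed by 0.08, -0.40 and -0.21 log2 and Pdyn, the dynorphin precursor, by 0.13, 0.32 and 0.04 log2. Hypothalamic neurons express both peptides as well, and the source of the transcripts was not tested for these or any other listed genes.

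The 7 genes of the indirect pathway had a median of 0.06, -0.02 and -0.04 log2. At 0.5M 4 of the 7 stood above control (57.1%, all genes 51.5%). The 0.5M array was the highest for 2 of them (28.6%, all genes 17.9%) and the control for 3 (42.9%, all genes 27.3%). Drd2 stood at 9.52 log2 in the control, 9.73 at 0.5M, 9.52 at 1M and 9.48 at 2M, with 0.5M again the highest. Penk, the enkephalin precursor, differed by 0.20, -0.05 and 0.09 log2. Sp9, a transcription factor of these neurons, was highest at 1M, with differences of 0.27, 0.47 and 0.28 log2, and Gprin3 at 2M, with 0.06, 0.07 and 0.23 log2. Gpr52, an orphan receptor, was below control in all 3, by -0.12, -0.20 and -0.15 log2.

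Of the genes of cyclic AMP and G protein signalling, 12 passed the filter, and 12 of 12 stood above control at 0.5M, 8 of 12 at 1M and 6 of 12 at 2M, beside 51.5%, 56.9% and 51.8% of all genes. The counts above control at 0.5M were 8 of 9 for the direct pathway and 4 of 7 for the indirect pathway. They were 9 of 9 for channel, cytoskeletal and other genes and 8 of 10 for transcription factors. The median difference of the 12 genes was 0.17 log2 at 0.5M, 0.09 at 1M and 0.00 at 2M. Gng7, the gamma subunit that pairs with the striatal stimulatory G protein, was 9.11 log2 in the control, 9.62 at 0.5M, 9.26 at 1M and 9.11 at 2M, so 2M did not differ from control by more than 0.01 log2. Its partner Gnal differed by 0.14, -0.07 and 0.00 log2, less at 0.5M than Gng7. Arpp21, a phosphoprotein regulated by cyclic AMP, differed by 0.38, -0.17 and 0.02 log2. Pde2a and Rasgrp2 were 0.28 and 0.24 log2 above control at 0.5M. Ptpn5, the striatum-enriched tyrosine phosphatase, differed by 0.03, 0.12 and -0.08 log2, and Rgs7bp, which anchors Rgs9 at the membrane, by 0.13, 0.10 and 0.00 log2.

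Channel, cytoskeletal and other genes had a median of 0.23, 0.16 and 0.15 log2 over 9 genes. Scn4b, a sodium channel beta subunit, was 0.29 log2 above control at 0.5M and -0.19 and -0.49 log2 from it at 1M and 2M. Lrrc10b differed by 0.54, 0.41 and 0.39 log2, Ngef by 0.42, 0.30 and 0.06 and Hpca, the calcium sensor hippocalcin, by 0.22, 0.39 and 0.32. Scn4b, Ngef and Lrrc10b were highest at 0.5M and Hpca at 1M. At 2M Scn4b was below control and Ngef near it. Ngef, Hpca and Lrrc10b were above control in each tumour-bearing array, Lrrc10b from a control value of 6.41 log2, under the filter. The 10 transcription factor genes had a median of 0.14, 0.05 and 0.05 log2. Meis2, a homeobox factor of striatal precursors and projection neurons, was 8.15 log2 in the control, 8.84 at 0.5M, 8.32 at 1M and 8.44 at 2M, with 0.5M standing apart by 0.40 log2. Six3 and Dlx6 were highest at 1M, 0.41 and 0.50 log2 above control, and Dlx5 at 2M, at 0.28 log2. Dlx6 fell short of the 0.5 log2 size before rounding.

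The fit across all genes with limma, 3 tumour-bearing arrays against the control array with 2 residual degrees of freedom, called 6 genes at an adjusted p under 0.05, or 0.0502% of those tested. Among the 47 other striatal genes it called 0. At the unadjusted threshold of 0.05 it gave 4, or 8.51%, beside 10.8% of all genes, and all 4 were above control: Lrrc10b at 0.44 ± 0.10 log2 (SE, limma adjusted p = 0.375), Chrm4 at 0.48 ± 0.12, Sp9 at 0.34 ± 0.11 and Hpca at 0.31 ± 0.10. This fit takes the spread between cell numbers as its error, so it is not built to call a gene that stands apart in the 0.5M array alone. Lrrc10b, at 6.41 log2 in the control, was under the filter there and was tested only through its tumour-bearing values. Its being above control is therefore in part set by the filter.

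Relatives and partners of the marker genes were listed by family, among them other adenylyl cyclases, phosphodiesterases and regulators of G protein signalling. In none of the 15 relatives and partners past the filter was 0.5M the highest array, beside 17.9% of all genes. Rasd1, the closest relative of Rasd2 and a gene induced by glucocorticoids, differed from control by 0.20, 0.11 and 0.33 log2, highest at 2M. Gpr3, a relative of Gpr6, was -0.52, -0.55 and -0.50 log2 from control, Rgs6, a relative of Rgs9, -0.42, -0.46 and -0.64 log2, and Adcy8, another adenylyl cyclase, -0.31, -0.40 and -0.48 log2. Gpr3 and Gpr6 thus lay on opposite sides of control in each tumour-bearing array. The median of the 15 was -0.05, 0.01 and -0.13 log2.

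Marker lists of adjoining tissues gave other orders of arrays. Striatal interneuron and basal forebrain cholinergic genes, of which 5 of 9 measured passed the filter, had medians of -0.21, -0.10 and -0.33 log2, and in 0 of the 5 was 0.5M the highest array, beside 17.9% of all genes, a share at which less than 1 of 5 would be counted. Slc18a3, the vesicular acetylcholine transporter, differed by -0.53, -0.18 and -0.33 log2 and Pvalb, parvalbumin, by -0.45, -0.03 and -0.33. Th, the dopamine synthesis gene that also marks hypothalamic neurons, differed by -0.21, -0.71 and -0.45 log2, and Kit by -0.01, 0.13 and 0.03. Cortex and hippocampus genes had medians of 0.00, 0.12 and 0.20 log2 over 10 genes, with Slc17a7, the cortical glutamate transporter, at -0.56, -0.59 and -0.35 log2 and Tbr1, a cortical transcription factor, at 0.49, 0.30 and 0.43. Tbr1, at 6.33 log2 in the control, was under the filter there and passed only through the tumour-bearing arrays. Fezf2 and Rtn4rl2 differed by 0.01, 0.41 and 0.33 and by 0.11, 0.35 and 0.36 log2. Thalamus genes had medians of 0.03, 0.08 and -0.04 log2 over 7 genes, with Tcf7l2 at -0.23, -0.09 and -0.40, Synpo2 at 0.12, 0.29 and 0.07, Lef1 at -0.18, 0.05 and -0.26 and Plekhg1 at 0.20, 0.08 and 0.04. The 4 septum and pallidum genes had medians of 0.13, 0.02 and 0.20 log2, led by Prdm16 at 0.16, 0.35 and 0.17 log2 and Trpc4 at 0.13, 0.06 and 0.32, with Zic1 at 0.12, -0.01 and 0.22 and Etv1 at -0.24, -0.20 and -0.11.

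**Figure D4:**
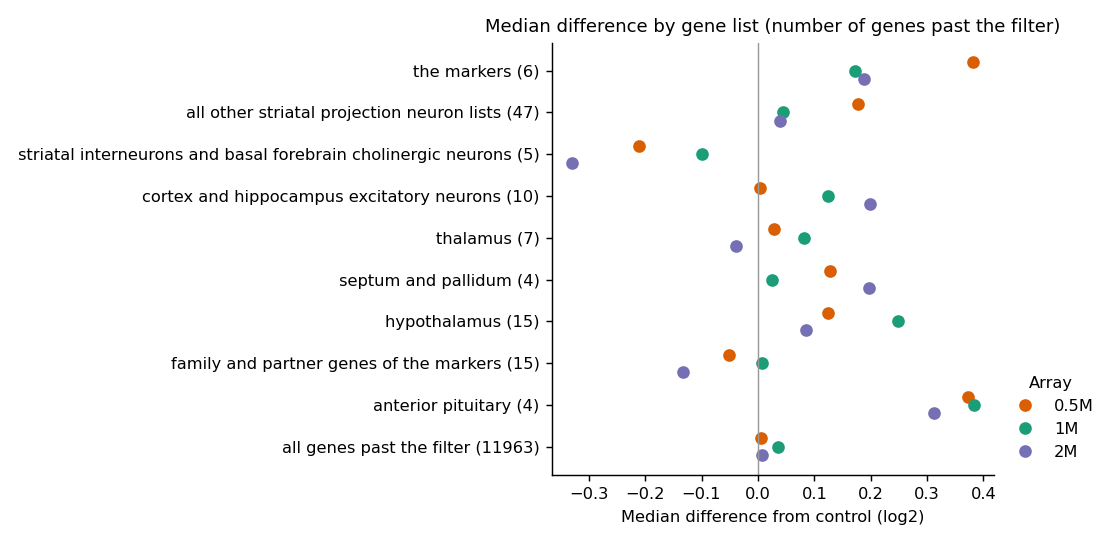
Median difference from the control array (horizontal axis, log2) of each gene list (vertical axis, with the number of genes past the filter) in the 0.5M, 1M and 2M arrays. The markers have 0.38 log2 at 0.5M against 0.17 and 0.19 at 1M and 2M, and the other striatal genes 0.18 against 0.04 and 0.04, while the medians of all genes are 0.01, 0.04 and 0.01 log2.

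Of the genes that define the hypothalamus, 15 of 17 measured passed the filter on the mean of the 4 arrays, and the mean level of the 15 was 8.80 log2 in the control, 8.98 at 0.5M, 9.07 at 1M and 8.92 at 2M. Its median difference was 0.12, 0.25 and 0.08 log2, so it was highest at 1M and not at 0.5M. Oxt, the oxytocin gene, differed by 0.79, 0.81 and 0.62 log2 and Avp, the vasopressin gene, by 0.50, 0.56 and 0.55. Pomc, the melanocortin precursor, differed by -0.20, -0.21 and -0.46 log2 and Hmx3 by 0.09, 0.60 and 0.50, so no gene named from this list stood apart at 0.5M. Hmx3, at 6.48 log2 in the control, was under the filter there and passed only through 1M and 2M.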

How the data were processed

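Total RNA of hypothalamus was measured on 4 whole-transcript arrays, 1 per group. Each deposited value is the log2 expression of a probe set. The submitters' processing notes name RMA, the method the authors used. Which version it had, and which arrays it took together, is not given in the sources used here. RMA aligns the arrays by quantiles, which removes changes common to all transcripts. The table holds 35556 probe sets, 0 missing values and 0 columns without a sample. The annotation names 21789 by 1 symbol and 1621 by several, and 12146 are unnamed here. Array medians were 6.72 to 6.77 log2 and arrays correlated at 0.984 to 0.994. The number of arrays limits the precision.

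The probe set with the highest mean stood for a gene, and genes at or above the 40th percentile were used. Differences of log2 values were counted at 0.5 and 0.3. limma 3.58.1 in R 4.3.3 (lmFit, eBayes, Benjamini-Hochberg) set the tumour-bearing arrays against control, and was tested on simulated data. Differences were computed with pandas 2.3.3 and numpy 2.4.6 under Python 3.11.15, and drawn with matplotlib 3.10.9. Named were all markers, up to 4 genes per list with the largest difference in any array, 11 further genes in any case, and the 10 nearest profiles. Markers and lists were chosen with earlier results of these data known. Alternatives were averaged probe sets, cyclic loess, median centring, other filters, 0.3 log2 and arrays or markers left out.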

Additional observations from a re-analysis of the deposited data

How the results depend on the processing

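The differences of the 6 markers from control moved by at most 0.03 log2 with cyclic loess or arrays centred on their medians. None changed sign among those of 0.5 log2 or more. Averaging probe sets could not move them, since each marker had 1 probe set. Centring brought Rgs9 at 0.5M to 0.51 log2, so that 3 markers in place of 2 reached 0.5 log2 there, and cyclic loess left 3 of the other striatal genes in place of 4. Leaving out 1 marker at a time, chosen after seeing the data, moved their median at 0.5M to 0.28 log2 (without Ppp1r1b, Pde10a or Rgs9) or 0.48 log2 (without Rasd2, Gpr6 or Adcy5). At 0.3 log2 the markers above control at 2M became 2. The other striatal genes above control became 8 at 0.5M, 8 at 1M and 3 at 2M of 47, beside 3.38%, 10.3% and 6.06% of all genes, and those below 1 at 1M and 1 at 2M, beside 7.82% and 5.98%. With the 60th percentile filter 2, Gng7 and Meis2, remained above control at 0.5M by 0.5 log2. Chrm4 and Lrrc10b, with mean levels of 7.15 and 6.74 log2, fell under that filter. With cyclic loess 1, Scn4b, was 0.5 log2 below control at 2M.

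Markers highest in the 0.5M array numbered 6 without the 2M array, and 5 with cyclic loess and with centring. The other striatal genes numbered 28 (59.6%, all genes 24.4%), 25 (53.2%, all genes 18.1%) and 31 (66%, all genes 27.7%) in the same settings. limma called 0 of the other striatal genes under every alternative run, with 3 to 6 at the unadjusted threshold. Signal over background could not be judged, since RMA values carry no detection call. No paired analysis was possible because each group is 1 array.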
